A study of Mus musculus with 2 samples.

Results

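Choroidal endothelial cells, which line the vessels behind the retinal pigment epithelium (RPE), were 95 of 3544 barcodes in single-cell libraries of mouse RPE and choroid. They were chosen by measured values: a barcode needed at least 1000 UMIs (unique molecular identifiers, 1 per captured RNA molecule) and 200 genes, at least 3 UMIs summed over Plvap, Egfl7, Cldn5 and Kdr, no UMI of the leukocyte gene Ptprc, at most 2 UMIs of the stromal genes Edn3, Pgf and Smoc1, and at most 1 UMI of the RPE genes Rgr and Rpe65. The Tsc1 RPE KO library gave 50 of 1955 barcodes (2.56%, 95% exact Clopper-Pearson interval 1.90 to 3.36%) and the Tsc1 flox library 45 of 1589 (2.83%, 2.07 to 3.77%).

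Tsc1 RPE KO mice carried the floxed Tsc1 allele (Tsc1tm1Djk/J) together with the Best-Cre transgene, described in the labels as specific to the RPE, and Tsc1 flox mice carried the same floxed allele without Cre. All mice were 10 weeks old, and each library pooled 1 male and 1 female, so each genotype was 1 sample and no test between genotypes was possible. The posterior eye cups, freed of the neuroretina, were taken apart with collagenase, dispase and trypsin, and sorted for live cells. The series title names DARPP32 (Ppp1r1b) as a target of hyperactive mTORC1 in the RPE, and the endothelial cells lie outside the cell type in which the Cre acts.

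The choroidal capillaries form a dense bed beneath the RPE and supply the outer retina. Their endothelium is thin and pierced by fenestrae, which are bridged by a diaphragm made of Plvap, and it depends on VEGF that the RPE secretes towards the receptor Kdr. Retinal vessels differ: their endothelium has no fenestrae and forms the inner blood-retina barrier. Larger choroidal arteries and veins run outside the capillary bed.

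The members held 168508 UMIs in Tsc1 RPE KO and 174511 UMIs in Tsc1 flox, of 12574364 and 10771118 UMIs in the whole libraries. UMIs per member were 1022 at the lowest, 2915.5 at the median and 6867 at the highest in Tsc1 RPE KO, against 1062, 3455 and 11156 in Tsc1 flox. The median number of genes per member was 1469 in Tsc1 RPE KO and 1776 in Tsc1 flox. Mitochondrially encoded RNA made up 3.07% and 2.47% of member UMIs. Xist, transcribed from the inactive X chromosome of females, was seen in 27 of 50 Tsc1 RPE KO members and 13 of 45 Tsc1 flox members. A Y-linked gene (Ddx3y, Eif2s3y, Kdm5d or Uty) was seen in 12 and 21 members, and no member held both. The counts of members with each sex's transcripts thus differed between the libraries. Ratios within each sex are given below for part of the genes, in some of which they differ by more than 1.5 times. Members with neither an Xist nor a Y-linked UMI are left out of these ratios. Each such ratio compares 1 mouse with 1 mouse, so sex cannot be told apart from the individual animal. The sex mix could not be taken into account for the other genes. The libraries had 2 barcode sequences in common among barcodes of at least 1000 UMIs and 0 among members.

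The gate sum of Plvap, Egfl7, Cldn5 and Kdr was 3 at the lowest, 21.5 at the median and 124 at the highest in Tsc1 RPE KO members, and 3, 37 and 190 in Tsc1 flox members. All 4 genes were present in 32 members of each library. Just inside the limit, 1 Tsc1 RPE KO member and 3 Tsc1 flox members had a sum of exactly 3. Just outside it, with the other conditions met, lay 2 and 3 barcodes with a sum of 2. Of 55 Tsc1 RPE KO barcodes and 48 Tsc1 flox barcodes that passed on the gate genes, 5 and 2 were lost for a Ptprc UMI, 0 and 0 for stromal genes, and 0 and 1 for RPE genes. The gate sum followed depth, as the plot of gate UMIs against total UMIs shows.

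**Figure D1:**
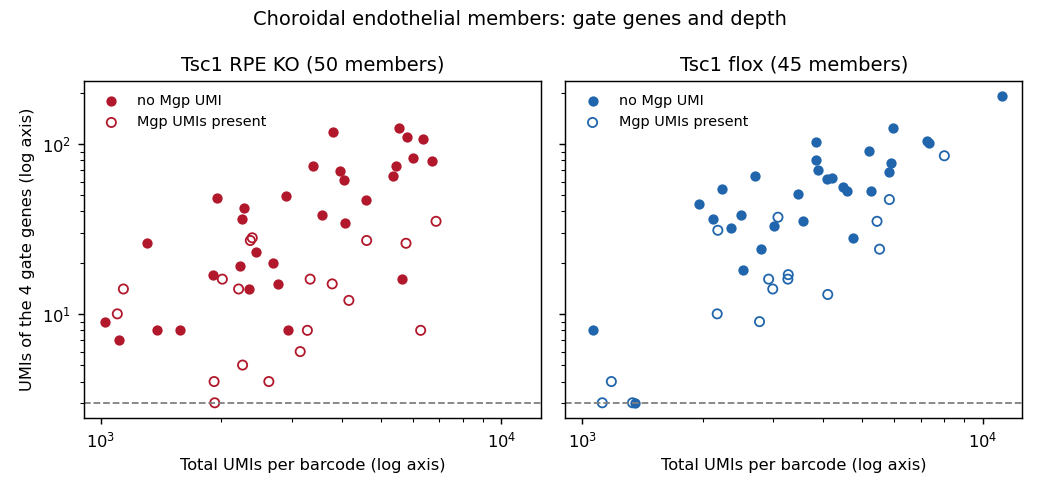
UMIs of the 4 gate genes (vertical, log axis) against total UMIs (horizontal, log axis) for each member, with Tsc1 RPE KO on the left and Tsc1 flox on the right. Filled points have no Mgp UMI, open points have at least 1, and the dashed line marks the limit of 3; members with Mgp had a median gate sum of 14 in Tsc1 RPE KO and 16 in Tsc1 flox, below the medians of 38 and 54 in members without.

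Most endothelial markers that the gate did not use stood higher in the members than in the other barcodes. Of 30 such endothelial markers, all were detected, and 27 had at least 50 UMIs over both libraries, the minimum for calling a gene measured. Their sum took 2.39% of member UMIs in Tsc1 RPE KO and 2.66% in Tsc1 flox. Flt1, a VEGF receptor, was seen in 48 of 50 and 45 of 45 members. Cdh5, the cadherin of endothelial junctions, was seen in 44 and 38. Endoglin (Eng), a TGF-beta co-receptor, was seen in 48 and 43. Not every marker set the members apart. Ets1 stood at 1.05 and 0.751 times its level in the other barcodes, and was seen in 84.2% and 89.7% of B cells. Fli1 stood at 5.18 and 4.17 times, and was seen in 53.0% and 54.0% of B cells.

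RNA of other cell types was scarce, which in part follows from the choice of members. The rule limited Rgr and Rpe65, which are among the RPE markers, and also Ptprc and the stromal genes. The 11 fibroblast markers summed to 6 UMIs in Tsc1 RPE KO and 10 in Tsc1 flox, the 9 RPE markers to 5 and 8, the 8 rod markers to 9 and 5, and the 9 T or NK cell markers to 3 and 3. The 7 B cell markers summed to 56 and 62 UMIs, of which the transcription factor Ebf1 gave 53 and 57, while Ighm was at 0 in both. Myeloid markers gave 15 and 1 UMIs, of which the lysozyme gene Lyz2 gave 9 and 0, with C1qa, C1qb and Adgre1 at 0. Pericyte and smooth muscle markers gave 36 and 22 UMIs, led by Rgs5 (22 and 18 UMIs, in 4 and 3 members), while Acta2, Myh11, Tagln, Des and Cspg4 were at 0. Haemoglobin and Alas2 gave 24 and 58 UMIs, against 37314 and 94398 CPM in free RNA.

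The 20 leading genes were ranked by the ratio of CPM (UMIs of a gene per 1000000 UMIs of the summed barcodes) in the members to CPM in all other barcodes, taking the smaller ratio of the 2 libraries. Since the members were picked by 4 of these genes, the ranking is a description. It ran Cldn5, Plvap, Tmem252, Flt4, Robo4, Kdr, Six3os1, Egfl7, Cyyr1, Adgrf5, Ptprb, Fam167b, Esam, Mmrn2, Six3, Stc1, Shank3, Clec14a, Sox18 and Nova2. Six3 is a homeobox gene known from forebrain and eye development, Robo4 an endothelial guidance receptor, Ptprb a phosphatase that acts on the receptor Tek, Esam a junction adhesion molecule and Stc1 a secreted glycoprotein hormone.

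Promoters of 4 of these genes are shown because the ETS factors Erg, Fli1 and Ets1, which regulate many endothelial genes, bind motifs around the core GGAA. The sequences are from RefSeq (GRCm38.p6), read 5′ to 3′ on the gene's strand, and capitals mark CCGGAA or CAGGAA on either strand. They lie at chr2:26583615-26583914 (plus strand) for Egfl7, which has other starts too, at chr5:75978406-75978705 (minus strand) for Kdr, at chr9:37401722-37402021 (plus strand) for Robo4 and at chr17:85620584-85620883 (plus strand) for Six3.
Egfl7: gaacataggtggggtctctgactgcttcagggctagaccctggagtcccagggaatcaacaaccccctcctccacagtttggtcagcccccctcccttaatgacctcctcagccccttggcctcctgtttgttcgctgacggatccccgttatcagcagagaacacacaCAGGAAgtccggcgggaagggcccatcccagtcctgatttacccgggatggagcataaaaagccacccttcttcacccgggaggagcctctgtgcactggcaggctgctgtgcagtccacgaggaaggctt
Kdr: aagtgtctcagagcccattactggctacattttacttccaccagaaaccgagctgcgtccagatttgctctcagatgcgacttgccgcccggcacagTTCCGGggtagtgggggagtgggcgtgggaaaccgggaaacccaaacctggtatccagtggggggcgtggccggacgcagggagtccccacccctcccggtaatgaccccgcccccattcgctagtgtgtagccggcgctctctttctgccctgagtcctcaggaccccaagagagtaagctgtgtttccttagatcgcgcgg
Robo4: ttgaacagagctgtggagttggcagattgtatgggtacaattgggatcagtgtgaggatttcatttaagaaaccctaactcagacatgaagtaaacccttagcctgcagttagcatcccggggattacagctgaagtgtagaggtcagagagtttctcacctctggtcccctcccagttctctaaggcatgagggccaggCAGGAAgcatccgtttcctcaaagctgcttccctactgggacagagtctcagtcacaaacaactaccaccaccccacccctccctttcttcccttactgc
Six3: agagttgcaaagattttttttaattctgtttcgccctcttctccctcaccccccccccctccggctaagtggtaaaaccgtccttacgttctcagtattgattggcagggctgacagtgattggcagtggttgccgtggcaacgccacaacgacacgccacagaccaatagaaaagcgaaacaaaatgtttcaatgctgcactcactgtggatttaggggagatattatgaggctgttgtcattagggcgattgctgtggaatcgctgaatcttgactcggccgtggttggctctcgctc
Of the 20 leading genes, 14 had a promoter in the RefSeq table. CCGGAA, on either strand, was found for 1 of the 14 (7.14%), against 16.7% of 27025 genes in the table, and CAGGAA for 7 of the 14, against 33.4% of all genes. At least 1 of the motifs was found for 8 of the 14 (57.1%), against 44.7% of all genes. Over all 32851 promoters of this length, 14.9% held CCGGAA, 30.6% held CAGGAA and 41.4% held either. The Six3 window held neither. It lies inside the annotated Six3 span given below, downstream of the start of that span, so a promoter at that start was not covered by it.

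Six3 had 262 UMIs in Tsc1 RPE KO members and 307 in Tsc1 flox members, and was seen in 39 of 50 and 40 of 45. Its level was 1555 CPM (95% exact Poisson interval 1372 to 1755) in Tsc1 RPE KO members against 3.50 CPM in the other barcodes of that library, and 1759 CPM (1568 to 1967) against 2.12 CPM in Tsc1 flox. After each barcode was thinned to 1000 UMIs, Six3 was seen in 64.0% and 64.4% of members, while 0 of 336 and 0 of 428 B cells held a UMI, which allows shares of up to 1.09% and 0.858% (exact Clopper-Pearson). The antisense gene Six3os1 had 113 and 109 UMIs, in 39 and 34 members. Six3 lies at chr17:85613608-85629302 on the plus strand and Six3os1 at chr17:85600651-85618398 on the minus strand (mm10, GENCODE M21), so their annotated spans overlap, and whether the counting used strand is not given in the sources used here. If it did not, reads within the overlap cannot be told apart.

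A hedgehog ligand described in choroidal endothelium, Ihh, had 22 UMIs in 9 Tsc1 RPE KO members and 11 UMIs in 7 Tsc1 flox members. All other barcodes of both libraries were at 0 for Ihh, which put the members at least 422-fold and 169-fold higher with a floor of 3 counts summed over the other barcodes. The hedgehog target genes Ptch1 and Gli1 gave 2 and 5 UMIs, and 0 and 0 UMIs, in the members. Igfbp3, which binds insulin-like growth factors, had 322 and 242 UMIs, in 37 and 33 members, against 2.47 and 5.11 CPM in the other barcodes. Flt4, the receptor of the lymphatic growth factor VEGF-C, had 54 and 48 UMIs in 29 and 25 members. The other lymphatic markers were at or near 0: Prox1, Lyve1, Pdpn, Ccl21a and Reln had no UMI in either library, and Mmrn1 had 3 and 2.

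**Figure D2:**
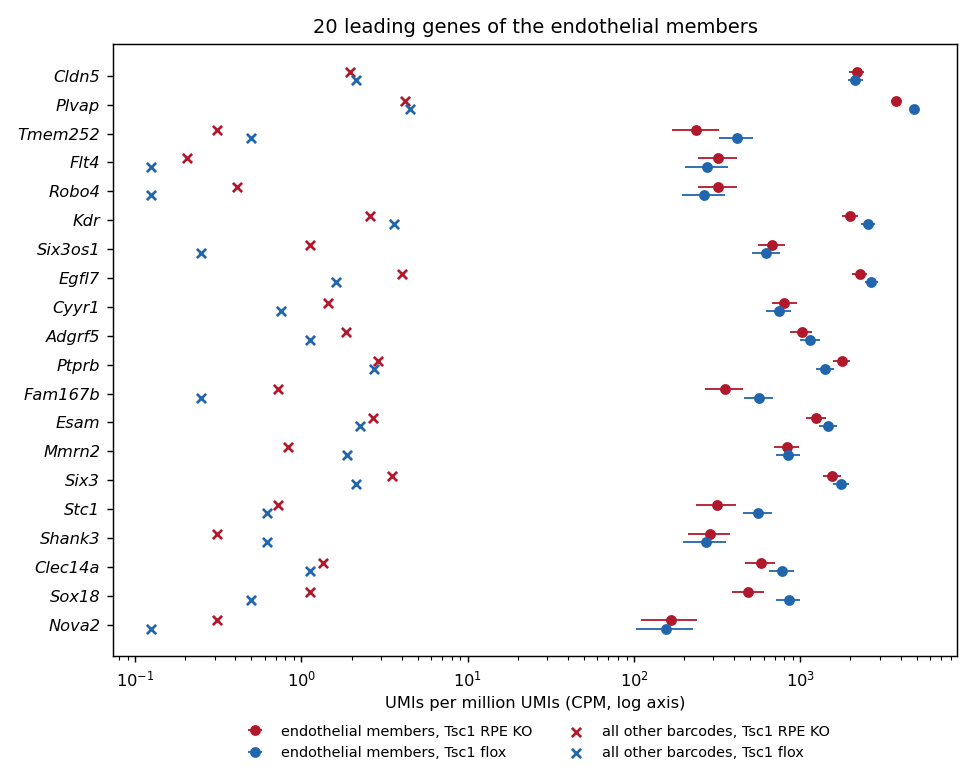
Level of the 20 leading genes in CPM (log axis), with endothelial members as filled points and all other barcodes as crosses, Tsc1 RPE KO in red above Tsc1 flox in blue. Bars are 95% exact Poisson intervals of the members; for Cldn5 the members stood at 2190 and 2143 CPM, against 1.96 and 2.12 CPM in the other barcodes.

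Most marker genes of fenestrated capillaries were measured, and fewer of the retinal barrier genes were. Of 19 fenestrated capillary genes, 17 were measured. Plvap and Kdr are 2 of them and also gate genes, so their presence follows from the choice of members. Plvap had 635 UMIs in Tsc1 RPE KO members and 843 in Tsc1 flox members, with a per-member median of 7 and 15 and a highest value of 65 and 80. Kdr had 336 and 444 UMIs, with a median of 2 and 6 and a highest value of 38 and 42. Plpp1, Plpp3, Rgcc and the water channel Aqp1 each had at least 166 UMIs in each library, while the fatty acid translocase Cd36 was at 0 in both. Of 14 barrier genes, 5 were measured. Mfsd2a, the lipid transporter of barrier endothelium, and Slco1c1 had 0 and 1 UMIs each, and Slc38a5 and Slc16a1 had none. The glucose transporter Slc2a1 (75 and 68 UMIs, in 20 and 16 members) and the organic anion transporter Slco1a4 (62 and 30, in 17 and 9) were among the measured ones. The others were the efflux pump gene Abcb1a (66 and 48), Itm2a (56 and 87) and the Wnt effector Lef1 (42 and 32). Slco1a4 was at least 2-fold higher in Tsc1 RPE KO members than in Tsc1 flox members (ratio 2.14, 95% exact conditional binomial interval 1.36 to 3.43), as were 2.22% of all measured genes.

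Members differed from one another in both libraries between cells with Mgp and Vwf and cells rich in Plvap, Kdr and Timp3. Other lines of difference among the members were not ranked against this one. Mgp encodes matrix Gla protein, an inhibitor of calcification made by larger vessels, and Vwf encodes von Willebrand factor. Mgp UMIs were present in 19 of 50 Tsc1 RPE KO members (38.0%, 24.7 to 52.8%) and 16 of 45 Tsc1 flox members (35.6%, 21.9 to 51.2%). The split by Mgp was chosen after the values were seen, so what follows is a description. In B cells, which should lack Mgp, 1.79% and 0.935% of barcodes held a UMI, with median depths of 3886.5 and 3906.5 UMIs. Mgp was at 656 and 633 CPM in free RNA, and it was seen in 92.5% and 93.1% of stromal fibroblasts, whose markers were near 0 in the members as given above. Of 14 arterial and 12 venous markers, 3 and 6 were measured, and a class was not assigned to the Mgp members.

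Of 1263 measured genes, 81 were higher and 87 lower in Mgp members with an interval excluding a ratio of 1 in both libraries. Ptn, a secreted heparin-binding factor, had 48 UMIs in Mgp members and 0 in the others in Tsc1 RPE KO, and 30 and 0 in Tsc1 flox. Vwf stood at 997 against 158 CPM in Tsc1 RPE KO (ratio 6.30, interval 3.63 to 11.5) and at 1303 against 67.1 CPM in Tsc1 flox (19.4, 9.35 to 46.7). The copper carrier ceruloplasmin (Cp) and Slco1a4 followed the same pattern, with ratios of 29.0 and 9.13 in Tsc1 RPE KO and 27.0 and 19.4 in Tsc1 flox. Slc2a1 was 2.23 times higher in Mgp members (1.38 to 3.64) in Tsc1 RPE KO and 22.3 times (9.68 to 63.1) in Tsc1 flox. The vein factor Nr2f2 (13 UMIs in Mgp members and 2 in the others in Tsc1 RPE KO, 13 and 5 in Tsc1 flox) and the artery gene Bmx (7 and 1, and 7 and 0) both lay mainly in Mgp members.

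Capillary genes lay on the other side. Kdr stood at 311 CPM in Mgp members against 2953 CPM in the others in Tsc1 RPE KO (ratio 0.105, 0.0625 to 0.167), and at 796 against 3354 CPM in Tsc1 flox (0.237, 0.170 to 0.325). Plvap had ratios of 0.246 (0.191 to 0.312) and 0.317 (0.257 to 0.389). Timp3, a protease inhibitor of the membrane between choroid and RPE, stood at 2616 against 11942 CPM in Tsc1 RPE KO and 4832 against 13300 CPM in Tsc1 flox. Car4, a carbonic anhydrase of capillary surfaces, had 0 UMIs in Mgp members of either library and 20 and 77 in the others. Six3 was in 14 of 19 and 12 of 16 Mgp members, at ratios of 0.253 (0.170 to 0.365) and 0.557 (0.415 to 0.738). General endothelial genes were shared by both sides: Cdh5 had ratios of 0.902 (0.640 to 1.26) and 1.03 (0.728 to 1.44), and Pecam1 1.32 and 1.34, with intervals that include 1. Plvap and Kdr are gate genes, and the part of the gate in the share of Mgp members was not tested.

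**Figure D3:**
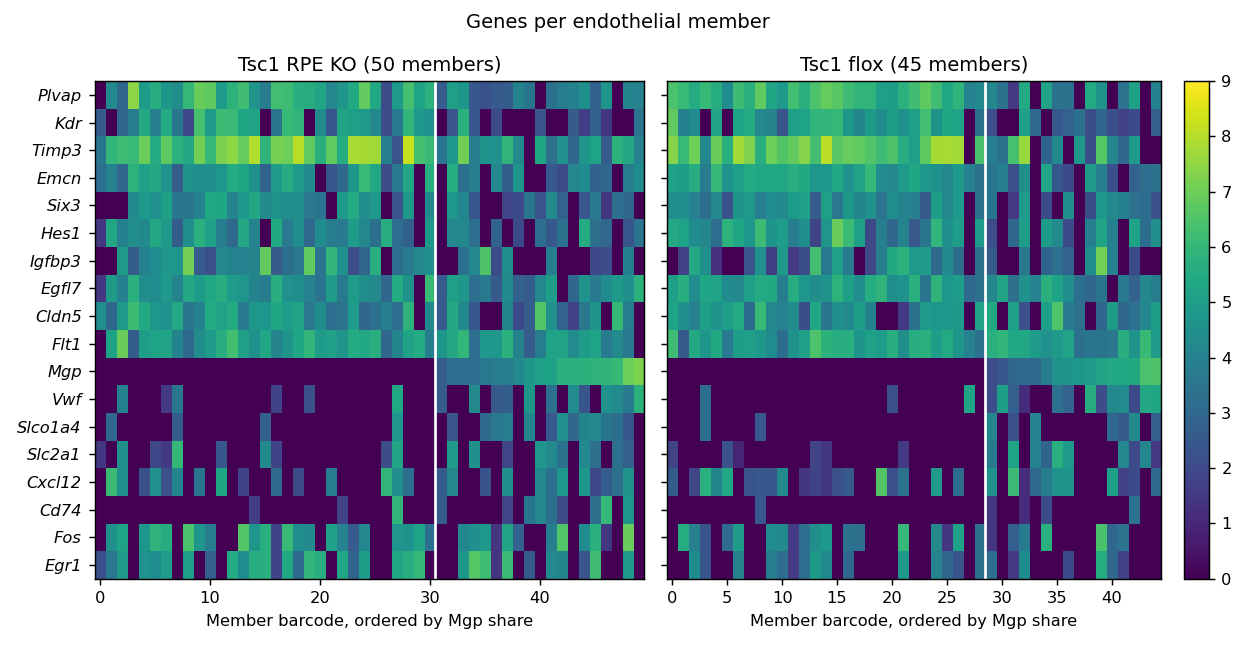
Each column is 1 member, Tsc1 RPE KO on the left and Tsc1 flox on the right, ordered by its Mgp share; colour is log2(UMIs per 10000 UMIs + 1) and the white line separates members without Mgp (left of it) from members with Mgp. Plvap, Kdr and Timp3 are bright in the 31 and 29 members without Mgp, while Vwf and Slco1a4 lie mostly among the 19 and 16 members with it.

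Between genotypes, genes of the immediate early response stood higher in Tsc1 RPE KO members and several capillary genes stood lower, while none of the 27 measured general endothelial markers differed by 2-fold. Ratios are Tsc1 RPE KO over Tsc1 flox on CPM, with 95% exact conditional binomial intervals. All intervals cover counting error only, not the spread between cells, mice or preparations. Of 1263 measured genes, 28 were at least 2-fold higher (2.22%) and 11 at least 2-fold lower (0.871%), and the median log2 ratio was -0.04. At any size, 580 were higher (45.9%) and 683 lower. These shares are the base for the counts of higher, lower and called genes in each list below. At such shares, no called gene in a short list is the usual outcome. A gene called here has passed this fold limit and no test.

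**Figure D4:**
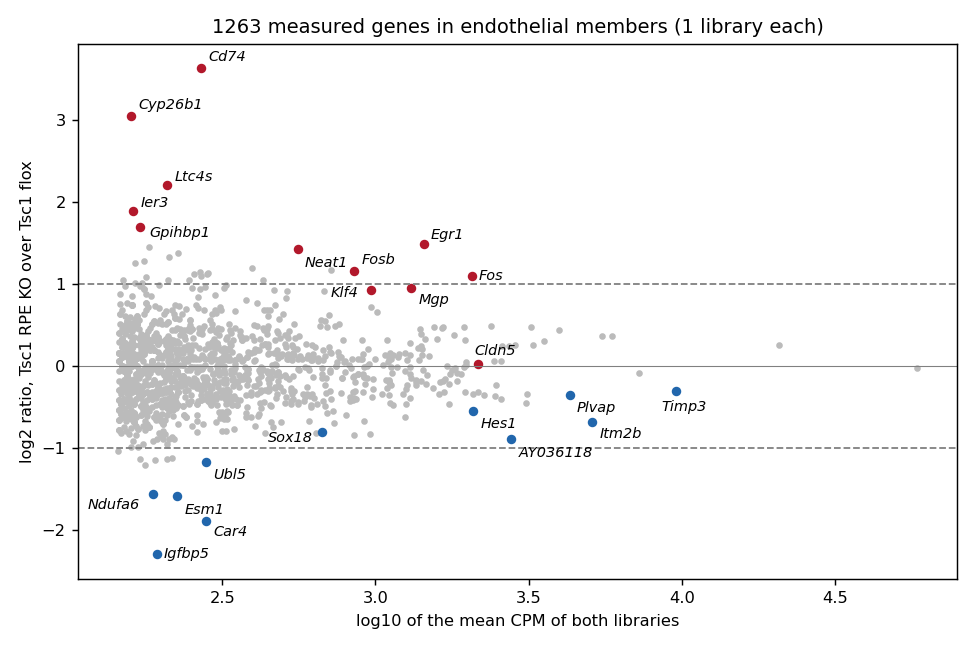
Log2 ratio of Tsc1 RPE KO over Tsc1 flox (vertical) against log10 of the mean CPM of both libraries (horizontal) for 1263 measured genes in the endothelial members. Dashed lines mark 2-fold; labelled genes above 0 are red and those below 0 blue, and Cd74 (ratio 12.4), Cyp26b1 (8.28) and Egr1 (2.80) lie above the upper line.

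Of 15 immediate early genes, 14 were measured. Of these, 13 were higher in Tsc1 RPE KO members, 5 at least 2-fold, against 2.22% of all measured genes, and 0 were lower by that limit, against 0.871%. The list's median log2 ratio was 0.48, against -0.04 over all measured genes. These are transcription factors and feedback regulators induced within minutes of a stimulus, tissue digestion included. Egr1 had 357 UMIs in 34 of 50 Tsc1 RPE KO members (median 4, highest 26) and 132 UMIs in 22 of 45 Tsc1 flox members (median 0, highest 17). This gave 2119 CPM (1905 to 2350) and 756 CPM (633 to 897), a ratio of 2.80 (2.29 to 3.45). Values per member overlapped between the libraries, and 16 and 23 members had no Egr1 UMI. After thinning to 1000 UMIs, Egr1 was seen in 58.0% (43.2 to 71.8%) and 37.8% (23.8 to 53.5%) of members, against 2.68% and 3.74% of B cells.

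Fos had 473 UMIs in 35 Tsc1 RPE KO members and 229 UMIs in 25 Tsc1 flox members, a ratio of 2.14 (1.82 to 2.52), and 2.02 without the member holding most Fos UMIs in each library. Fosb had 198 and 92 UMIs (2.23, 1.73 to 2.89), Socs3, a brake on cytokine signalling, 55 and 22 (2.59, 1.55 to 4.46), and Ier3 43 and 12 (3.71, 1.92 to 7.73). Jun (1.40, 1.21 to 1.61) and Ier2 (1.64, 1.31 to 2.07) were higher by less. Klf6 was the measured member that was not higher, with 61 and 68 UMIs (1.08-fold lower, 0.751 to 1.55), and Atf3, with 17 and 23 UMIs, was not measured. Splitting the members by sex gave ratios above 1 on both sides. Egr1 had a ratio of 3.40 (2.25 to 5.32) among members with an Xist UMI and 2.50 (1.88 to 3.34) among members with a Y-linked UMI, and Fos had 3.10 (2.29 to 4.29) and 2.14 (1.69 to 2.72). On the 2 sides of the Mgp split, Egr1 had 2.91 (2.03 to 4.27) with Mgp and 2.75 (2.15 to 3.55) without.

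In other cells of these libraries, the leading genes of the list had ratios closer to 1 or below 1. Egr1 had a ratio of 0.545 (0.366 to 0.799) in B cells, 0.456 (0.367 to 0.564) in T cells and 1.08 (1.02 to 1.15) in stromal fibroblasts. Fos had 0.977, 0.840 and 1.37. The list's median log2 ratio was -0.01 in B cells, 0.16 in T cells and 0.28 in stromal fibroblasts, where all 15 genes were higher but 1 reached 2-fold. Whether the endothelial difference arose in the animals or during digestion and sorting was not tested. Of the 8 heat shock genes, 3 were measured, all below a ratio of 1, with a median log2 ratio of -0.35. The genes too low to be measured were divided. Some lay above 1: Hspb1 had 30 and 6 UMIs (5.18, 2.12 to 15.2), Hspa1a 17 and 5 (3.52, 1.25 to 12.2) and Hspa1b 13 and 5 (2.69, 0.901 to 9.65). In stromal fibroblasts their ratios were 2.80, 1.41 and 1.56. Of the 17 Hspa1a UMIs in Tsc1 RPE KO members, 9 lay in 1 member. Dnajb1, with 20 and 23 UMIs (0.901, 0.469 to 1.71), and Hsph1, with 5 and 8 (0.647, 0.167 to 2.24), had ratios below 1.

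**Figure D5:**
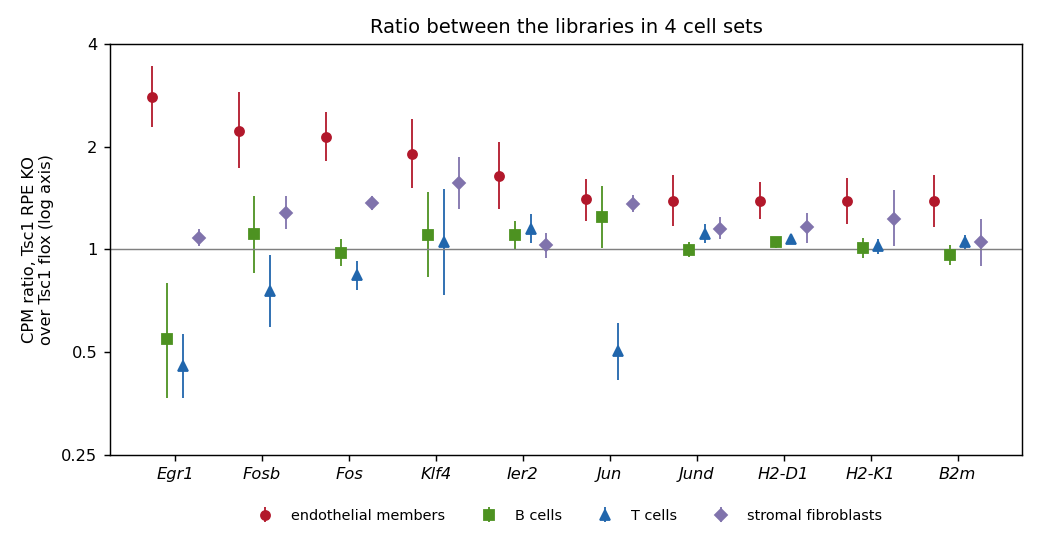
CPM ratio of Tsc1 RPE KO over Tsc1 flox (log axis) for 10 genes in endothelial members, B cells, T cells and stromal fibroblasts, with 95% exact conditional binomial intervals that cover counting error only. Egr1 stands at 2.80 in the endothelial members, against 0.545, 0.456 and 1.08 in the other cells, and H2-D1 at 1.39 against 1.05, 1.07 and 1.16.

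The flow-responsive factor Klf4 had 213 UMIs in 40 Tsc1 RPE KO members and 116 UMIs in 32 Tsc1 flox members, a ratio of 1.90 (1.51 to 2.41), with intervals of 1.06 to 2.17 among Xist members and 1.55 to 3.11 among Y members. Its relative Klf2 had 497 and 438 UMIs (1.18, 1.03 to 1.34). The nitric oxide synthase gene Nos3, a target of both, had 28 and 24 UMIs (1.21, 0.675 to 2.18). Of 11 measured genes of the flow and vasomotor list, 5 were higher and 6 lower, and none was called.

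The ranking outside the immediate early list covered measured genes, without markers of other cells and genes richer in free RNA, Cd74 among them. In it, the retinoic acid hydroxylase gene Cyp26b1 stood highest by the bound of its interval nearest to 1. It had 48 UMIs in 15 of 50 Tsc1 RPE KO members (highest 7) and 6 UMIs in 3 of 45 Tsc1 flox members (highest 2), which gave 285 CPM (210 to 378) and 34.4 CPM (12.6 to 74.8), a ratio of 8.28 (3.54 to 23.7). After thinning to 1000 UMIs it was seen in 9 of 50 members (8.58 to 31.4%) and 2 of 45 members (0.543 to 15.1%), and in 0 of 336 and 0 of 428 B cells. Of the 48 Tsc1 RPE KO UMIs, 47 lay in members without Mgp. Among members with an Xist UMI the counts were 36 and 0, and among members with a Y-linked UMI 11 and 6 (3.15, 1.07 to 10.4). Thbs1, with 48 and 1 UMIs, fell below the minimum of 50 UMIs and so was not ranked. Its ratio was 49.7, with a lower bound of 8.51, above that of Cyp26b1.

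Ltc4s, the synthase of leukotriene C4, had 58 UMIs in 18 Tsc1 RPE KO members (highest 16) and 13 UMIs in 8 Tsc1 flox members (highest 4), a ratio of 4.62 (2.50 to 9.19). The ratio was 12.0 (3.13 to 103) among Xist members and 1.96 (0.623 to 6.36) among Y members. Neat1, a nuclear long non-coding RNA, had 137 and 53 UMIs, each in 28 members, a ratio of 2.68 (1.94 to 3.75), with 2.35 and 4.36 in Xist and Y members. Its median per member was 1 in both libraries. The top 3 members held 62 of the 137 UMIs in Tsc1 RPE KO and 11 of the 53 in Tsc1 flox. Without the top Neat1 member of each library the ratio was 2.39 (1.69 to 3.41). In B cells, T cells and stromal fibroblasts Neat1 had ratios of 0.895, 1.04 and 0.798. Gpihbp1, which carries lipoprotein lipase across capillary endothelium, had 44 and 14 UMIs, but 25 of the 44 lay in 1 member, and without the top member of each library the counts were 19 and 10 UMIs, with a ratio interval of 0.887 to 4.83. Mgp itself had 291 and 156 UMIs (1.93, 1.58 to 2.36), in nearly equal shares of members.

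Antigen presentation genes stood higher in Tsc1 RPE KO members, class I across many cells and class II in a few. All 6 measured class I genes were higher, none by 2-fold, with a median log2 ratio of 0.47. H2-D1 had 629 UMIs in 47 Tsc1 RPE KO members (median 10.5) and 468 UMIs in 40 Tsc1 flox members (median 9), a ratio of 1.39 (1.23 to 1.57). H2-K1 had 380 and 284 UMIs (1.39, 1.19 to 1.62) and B2m, the light chain, 304 and 227 (1.39, 1.16 to 1.65). All 3 were also higher outside the members: in the other barcodes B2m was at 1858 and 1379 CPM, H2-D1 at 4437 and 3731 and H2-K1 at 1434 and 1222. There, H2-Q4 (156 and 144) and Tapbp (142 and 141) differed less, and H2-T23 (289 and 328) was lower. In free RNA, B2m was at 1625 and 1180 CPM, H2-D1 at 3459 and 2858 and H2-K1 at 1179 and 1020. H2-Q4, H2-T23 and Tapbp were lower in Tsc1 RPE KO free RNA. The list's median log2 ratio was 0.02 in B cells, 0.11 in T cells and 0.21 in stromal fibroblasts. The part of free RNA in the class I values was not tested. The values of Xist and Y members were apart, though the difference was not tested. Each side held 1 mouse per library, so sex and animal cannot be told apart. H2-D1 had 1.52 (1.25 to 1.85) among Xist members and 1.01 (0.825 to 1.24) among Y members, and H2-K1 1.39 (1.10 to 1.78) and 0.865 (0.652 to 1.14). The part of the sex mix in the class I values was not tested. H2-D1 and H2-K1 are close paralogs of other class I genes, so reads may be split between them.

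Cd74, the invariant chain of class II, had 84 UMIs in 12 of 50 Tsc1 RPE KO members and 7 UMIs in 5 of 45 Tsc1 flox members, a ratio of 12.4 (5.77 to 31.9). Of the 84, 68 lay in 3 members. Cd74 was at 2534 and 3003 CPM in free RNA, above its 498 and 40.1 CPM in the members, and at 13455 and 13854 CPM in B cells. H2-Ab1 (32 and 15 UMIs) and H2-Aa (17 and 5) were in 11 and 9 Tsc1 RPE KO members and in 7 and 5 Tsc1 flox members. The class II regulator Ciita had 4 and 0 UMIs. B cell markers other than Ebf1 summed to 3 and 5 UMIs, and the myeloid markers to 15 and 1; their part in the Cd74 counts was not tested. Of 5 measured interferon-response genes, 2 were higher and 3 lower, with a median log2 ratio of -0.19.

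Most capillary genes and the VEGF receptor genes Kdr and Flt1 stood lower in Tsc1 RPE KO members, mostly by modest amounts. Of 17 measured fenestrated capillary genes, 12 were lower, 2 of them at least 2-fold, against 0.871% of all measured genes, and 5 were higher, 1 of them (Gpihbp1) at least 2-fold, with a median log2 ratio of -0.35. Plvap and Kdr are in this count and helped to choose the members, so their values are a description. Plvap stood at 3768 CPM (3481 to 4073) in Tsc1 RPE KO and 4831 CPM (4510 to 5168) in Tsc1 flox, 1.28-fold lower (1.16 to 1.42). Kdr was 1.28-fold lower (1.10 to 1.47) and Flt1, which the gate did not use, 1.27-fold lower (1.12 to 1.43). Flt1 had ratios of 0.612 among Xist members and 0.788 among Y members. The VEGF co-receptor Nrp1 had 119 and 196 UMIs, 1.59-fold lower (1.26 to 2.01), with ratios of 0.435 among Xist members and 0.720 among Y members. The co-receptor Nrp2 went the other way, with 61 and 50 UMIs (ratio 1.26, 0.855 to 1.87), as did the receptor Flt4, given below. The 2 genes called lower were Esm1 and Car4. Esm1, a secreted proteoglycan induced by VEGF, had 19 UMIs in 7 members and 59 UMIs in 17 members, a ratio of 0.334 (0.188 to 0.567).

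Some of these values rested on few cells or on 1 part of the members. Car4 had 20 and 77 UMIs (3.72-fold lower, 2.25 to 6.42), but 57 of the 77 lay in 1 Tsc1 flox member, and without the top Car4 member of each library it was 1.44-fold lower. Without the deepest member of each library Car4 had a ratio of 1.01. Kdr had a ratio of 0.504 (0.381 to 0.668) among Xist members, while among Y members it stood at 3109 and 3108 CPM. Esm1 was 4.19-fold lower (1.64 to 13.7) among Y members and 1.13-fold lower (0.402 to 3.02) among Xist members. Plvap had like values in both sexes, 1.28-fold lower in Xist members and 1.26-fold lower in Y members. Within members without Mgp, Plvap had a ratio of 0.842 (0.753 to 0.941) and Kdr 0.880 (0.757 to 1.02). Vegfa, the ligand, had 3 and 0 UMIs in the members.

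Among the remaining receptors, Tek, the angiopoietin receptor, had 68 and 86 UMIs (1.22-fold lower, 0.878 to 1.70), Tie1 115 and 150 (1.26-fold lower, 0.981 to 1.62), and Flt4 54 and 48 (ratio 1.17, 0.775 to 1.76). Ptprb was higher, with 299 and 245 UMIs (1.26, with a lower bound of 1.06). Of 12 measured Notch and BMP genes, 11 were lower, against 683 of all 1263 measured genes. None was called, and the median log2 ratio was -0.25. The Notch effector Hes1 had 284 and 432 UMIs, with a median of 3 and 7 per member, 1.47-fold lower (1.26 to 1.71). It was lower in Xist members (1.82-fold, 1.42 to 2.32) and in Y members (1.29-fold, 1.02 to 1.64). The BMP target Id1 was the exception, with 272 and 206 UMIs (1.37, 1.14 to 1.65), a ratio of 1.03 (0.767 to 1.39) in Xist members and 2.55 (1.91 to 3.41) in Y members. The endothelial factor Sox18 had 82 and 148 UMIs, 1.74-fold lower (1.32 to 2.31), with ratios of 0.840 (0.534 to 1.33) among Xist members and 0.604 (0.371 to 0.956) among Y members.

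Of 10 measured junction genes, 4 were higher and 6 lower, with a median log2 ratio of -0.23. Cldn5, a gate gene and so a description, had 369 and 374 UMIs (1.02, 0.883 to 1.18), Cdh5 162 and 164 (1.02, 0.818 to 1.28) and Esam 210 and 255 (1.17-fold lower, 0.973 to 1.41), and none of the 10 was called. Pecam1 was higher, with 98 and 68 UMIs (1.49, 1.08 to 2.06). Of 27 measured general endothelial markers, 8 were higher and 19 lower, none was called, and the median log2 ratio was -0.19. In the list of adhesion genes for leukocytes, Podxl had 179 and 184 UMIs, Cxcl12 143 and 192, Cd34 134 and 129 and Cx3cl1 67 and 64. Icam1 had 92 and 72 UMIs (1.32, 0.962 to 1.83) and Icam2 71 and 93 (1.26-fold lower, with an interval that includes 1). Vcam1 had 18 UMIs in 5 members and 0 UMIs, and Selp, Sele and Ackr1 had 12 and 2, 6 and 1, and 0 and 0. In Tsc1 RPE KO, 1 member held 11 of the 12 Selp UMIs, and 1 member held all 6 Sele UMIs. Basement membrane genes were mostly lower, 9 of 12 measured, with Timp3 at 8557 and 10618 CPM (1.24-fold lower, 1.16 to 1.33; 1.53-fold in Xist members and 1.18-fold in Y members), while the collagens Col4a1 (99 and 103 UMIs) and Col4a2 (71 and 76) were close to equal.

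None of the measured arterial, venous, transcription factor and glycolysis genes was called, against 2.22% of all measured genes called higher and 0.871% called lower. In the tip cell list Esm1 was called lower, and in the lipid uptake list Gpihbp1 was called higher, both given above. All 3 measured arterial genes were lower: the chemokine Cxcl12 had 143 and 192 UMIs (1.30-fold lower, 1.04 to 1.62), the ephrin Efnb2 25 and 46 (1.78-fold lower, 1.07 to 3.02) and Sema3g 23 and 40 (1.68-fold lower, 0.981 to 2.94). Of 6 measured venous genes, 4 were higher and 2 lower, with Vwf at 78 and 80 UMIs and Tmem252 at 40 and 72 (1.74-fold lower, 1.17 to 2.63). Of the 72 Tmem252 UMIs, 23 lay in 1 Tsc1 flox member. Without each gene's top member in each library, Tmem252 was 1.38-fold lower (0.874 to 2.19) and Cxcl12 1.22-fold lower (0.955 to 1.56). Of 5 measured tip cell genes, 4 were lower and Igfbp3 was higher (1.38, 1.16 to 1.63). Of the 322 Igfbp3 UMIs in Tsc1 RPE KO, 92 lay in 1 member. Without the top Igfbp3 member of each library the ratio was 1.21 (0.995 to 1.47). The Igfbp3 ratio was 2.94 (2.09 to 4.22) among Xist members and 0.503 (0.359 to 0.693) among Y members. Of 12 measured transcription factors, 8 were higher and 4 lower, with the ETS factors Fli1 (92 and 91 UMIs) and Ets1 (60 and 59) close to equal. Of 5 measured glycolysis genes, 3 were higher and 2 lower, and of 4 measured lipid uptake genes, 2 were higher and 2 lower.

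Other genes were lower in Tsc1 RPE KO members, and some of them were expressed widely. Itm2b, a membrane protein, stood at 3917 and 6269 CPM (1.60-fold lower, 1.45 to 1.77), 1.14-fold lower (0.977 to 1.33) in Xist members and 2.44-fold lower (2.06 to 2.91) in Y members. The complex I subunit gene Ndufa6 had 16 and 49 UMIs and Ubl5 29 and 68 (2.96-fold and 2.26-fold lower). The endocytic gene Ehd4 had 117 and 215 UMIs, the lysosomal protease gene Ctsl 78 and 143, and Emp2 103 and 191. Ehd4 and Emp2 were richer in the members: Ehd4 stood at 694 and 1232 CPM against 83.9 and 62.6 CPM in the other barcodes. Emp2 stood at 611 and 1094 CPM against 11.2 and 20.7 CPM. Of the 191 Emp2 UMIs, 62 lay in 1 Tsc1 flox member. Emp2 was 1.79-fold lower, and 1.46-fold lower without the top Emp2 member of each library. The non-coding gene AY036118 had 328 and 628 UMIs (ratio 0.541), and it was lower in every cell set examined, with ratios of 0.645 in B cells, 0.659 in T cells and 0.610 in stromal fibroblasts. Igfbp5, chosen after its values were seen, had 11 and 56 UMIs in 4 and 8 members, all below its 1258 and 1573 CPM in free RNA.

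Genes of the targeted pathway gave few counts. Tsc1 had 5 UMIs in 3 Tsc1 RPE KO members and 4 UMIs in 4 Tsc1 flox members, and the Cre is not described as acting in endothelium, so this does not check the genotype; a 3' tag also need not lie in the deleted part. Ppp1r1b had 0 UMIs in 50 and 0 in 45 members. Of 4 measured mTORC1 pathway genes, 3 were higher and 1 lower, none was called, and the median log2 ratio was 0.22. Rheb, the activator of mTORC1, had 45 and 35 UMIs (1.33, 0.837 to 2.13). Mitochondrially encoded genes were higher in 11 of 12 measured, with a median log2 ratio of 0.29 and mt-Co2 at 4581 and 3369 CPM (1.36, 1.22 to 1.52), against a median of -0.10 in B cells, -0.10 in T cells and -0.06 in stromal fibroblasts. Cell cycle genes summed to 74 and 61 UMIs, and 2 of 13 were measured.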

How the data were processed

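The deposited tables hold unfiltered UMI counts for every gene in every barcode of each droplet library of RPE and choroid. Per the submitters' processing notes the tools were Cell Ranger 2.1.1 and the build mm10, while the headers of the deposited tables name Cell Ranger 4; the protocol names a 3' v2 kit. Strand use in counting is not given in the sources used here. The gene and barcode lists deposited with the counts gave names only (32285 gene rows; rows sharing a symbol were summed).

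Members were found by the stated limits and counts were summed per library and expressed as CPM. B cells had at least 3 UMIs of Cd79a, Cd79b and Ms4a1, T cells of Cd3e, Cd3d and Cd3g, and stromal fibroblasts of Edn3, Pgf and Smoc1 without Ptprc, all with at most 2 gate UMIs. Poisson, Clopper-Pearson and conditional binomial 95% intervals were computed with scipy 1.17.1. Only the conditional binomial interval was checked on simulated counts. These were Poisson draws without spread between cells, so the check does not cover such spread. Free RNA was the sum of barcodes with 10 to 100 UMIs. Scrublet (scanpy 1.11.5) marked 24 and 12 barcodes as doublets and 0 members, and none was removed. Coordinates are from GENCODE M21 (mm10).

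The genes named were the gate genes, Tsc1 and Ppp1r1b, up to 4 members of each of 35 lists by UMIs and the 20 leading genes. The 10 highest and 10 lowest ratios of measured genes, by the interval bound nearest to 1, were also named. That ranking left out other cells' markers, mitochondrial and sex-linked genes and genes richer in free RNA. Other genes were chosen after their values were seen. The members, lists and named genes were chosen with earlier results of these data known. Alternatives changed the depth, gate, doublet, mixed-marker, weighting, free RNA, scaling and count limits. Some results are not reported here.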

Additional observations from a re-analysis of the deposited data

How the results depend on the processing

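The member numbers, their shares and their median depth changed by less than their counting intervals, or by under 1.5 times, under each alternative run for them: at least 1500 UMIs, at least 5 gate UMIs and without mixed-marker barcodes. No member was marked as a doublet, so leaving doublets out could not change the members. The number of genes at least 2-fold higher or lower in Tsc1 RPE KO, 28 and 11 at a minimum of 50 UMIs, was 163 and 146 at a minimum of 20 UMIs and 7 and 0 at a minimum of 100, which admit more and fewer genes than a minimum of 50. The lower count was 23 with every barcode weighted equally and 19 after subtraction of free RNA at 10%, and the cause of those shifts was not tested. Car4 had a ratio of 1.01 without the deepest barcode of each library, against 0.269 in all members. Of the alternative values computed for named genes, 1142 stayed within the counting interval, 58 lay outside it and 1 reversed; for list medians, 206 stayed and 38 lay outside. The members without Mgp, the members by sex, the mixed-marker rule without Ebf1 and the removal of each gene's top member were chosen after seeing the data. No paired analysis was possible because each genotype was 1 library. Depth limits what can be read from genes under 50 UMIs: Ihh, with 22 and 11 UMIs, had a ratio interval of 0.963 to 4.73. With 1 library per genotype, leaving out a replicate was not possible either.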
